A study of Rattus norvegicus with 4 samples.

Results

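The integrated stress response genes described here are Atf4, Ddit3 (which encodes CHOP), Ppp1r15a, Trib3, Asns, Chac1, Sesn2 and Ddit4, chosen by name as ATF4 and CHOP with genes they are known to control. They are 8 of 16581 measured genes and are read by 9 of the 21109 named probes on the array. The cells were NR8383, a macrophage line derived from rat lung lavage fluid, described as being at 20 passages and seeded for 48 h. All received COOH-functionalized carbon nanotubes (NRCWE042) at 6.8 cm2 of nanotube surface per cm2 for 4 h. The 4 biological replicates were read on 4 one-colour Agilent arrays. They form 1 group, and unexposed samples were not analysed here, so the values show which of these genes the exposed cells expressed and how far the replicates differed, not whether exposure changed a gene. A line in culture models lung macrophages without the other cells of the lung.

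In the integrated stress response, the kinases HRI, PKR, PERK and GCN2 sense different stresses and phosphorylate the initiation factor eIF2. This lowers protein synthesis in general while the ATF4 message, which carries short upstream reading frames, is translated more, so that ATF4 protein can rise without more Atf4 mRNA. ATF4 then drives genes of amino acid supply and redox balance, and under lasting stress CHOP and its targets, among them the phosphatase subunit that reverses eIF2 phosphorylation.

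ATF4 is known to bind as a dimer with C/EBP proteins at a composite element, searched here as TGATGNAA, and related factors bind the cAMP response element, searched as TGACGTCA. Both strands were searched in RefSeq promoters of the rat assembly GRCr8, from 250 bases before to 50 after each gene's start, and all 8 genes had such a window. The 3 matches printed are all those found in the windows of the 8 genes, and they lie before Chac1, Trib3 and Ppp1r15a. Each line runs 5′ to 3′ on the gene's strand, with up to 20 bases on each side and the match in capitals.
Chac1, chr3:126795944-126795991, plus strand: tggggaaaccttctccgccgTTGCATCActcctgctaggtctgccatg
Trib3, chr3:161275534-161275574, minus strand: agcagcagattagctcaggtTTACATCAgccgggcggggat
Ppp1r15a, chr1:105139635-105139682, minus strand: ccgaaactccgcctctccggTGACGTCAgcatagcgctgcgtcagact
The composite element matched on the antisense strand 167 to 160 bases before the start of Chac1 and 21 to 14 bases before that of Trib3. The cAMP response element, which reads the same on both strands, lay 66 to 59 bases before the start of Ppp1r15a. The composite letters were thus in 2 of 8 members (25.0%) and in 15 of 74 promoters of the wider pathway genes (20.3%), beside 3.98% of all 33469 promoters. Pathway genes with a match included the tRNA synthetase genes Aars1, Cars1, Iars1, Mars1, Nars1, Tars1 and Yars1, the transporter gene Slc7a1, and Herpud1 and Nupr1. The cAMP response element was in 1.83% of all promoters, in 1 member and in 0 of the 74 pathway genes. The windows of the other members held neither string, and no member held both, so no matches overlapped. A match describes letters in the window, not binding.

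The arrays differed in brightness. The 75th percentile of probe signal was 128, 131, 98.6 and 49.0 on replicates 1 to 4, and 38.8% to 31.1% of sample probes were well above background. The probes of spike-in control RNA lay at 0.00, -0.09, 0.24 and -0.09 log2 units relative to replicate 1, while the percentile of the sample probes lay at 0.00, 0.03, -0.38 and -1.39. On replicate 3 an area near the centre of the array was dim, spanning spot rows 145 to 240 and columns 65 to 96 and holding 3.63% of the sample spots. All 9 macrophage marker genes measured, such as Cd68, Lyz2 and Spi1, were well above background on every array, and 0 of the 6 lung epithelial, 5 fibroblast, 4 T cell, 1 B cell and 3 neutrophil genes measured were. In RNA from whole cultures, fewer cells expressing a gene and less RNA of it per cell cannot be told apart.

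All 8 genes were well above background on all 4 arrays, where 44.4% of all measured genes were. Levels are given as log2 of the processed signal minus the array's 75th percentile, so that 0 is the percentile itself, and are comparable within a gene only, since probes differ in brightness for the same amount of RNA. Errors are SDs over the 4 arrays (n = 4).

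Atf4, the transcription factor at the centre of the response, had the smallest SD of the 8 genes on the percentile scale. Its level was 7.94, 8.05, 7.95 and 8.0 on replicates 1 to 4, a mean of 7.99 ± 0.05 (SD, n = 4). The highest and lowest arrays were 1.08-fold apart, and 2.77% of detected genes had a smaller SD. Atf4 was read by 10 spots scattered over the array, and its level is the mean of those not marked as outliers. On replicates 1 and 2, 1 spot was so marked and left out. Single spots had an SD of 0.04 to 0.08 within an array. On the spike-in scale, however, Atf4 stood at 0.41, 0.63, -0.20 and -0.83 relative to its mean, an SD of 0.66. Asns had a smaller SD than Atf4 with normexp (0.23 and 0.25), quantile normalization (0.03 and 0.14), the percentile of detected probes (0.01 and 0.09) and local correction (0.01 and 0.09).

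Ddit3 encodes CHOP, the transcription factor of the late, death-prone phase of the response, and had the widest spread. Its level was 5.85 and 5.84 on replicates 1 and 2, 2.54 on replicate 3 and 5.17 on replicate 4, a mean of 4.85 ± 1.57 (SD, n = 4). Replicate 3 lay 3.31 log2 units below the median of the others, and 99.8% of detected genes had a smaller SD. It was 1 of 8 members more than 1 log2 unit below the other arrays on replicate 3, where 1.77% of detected genes were.

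The only Ddit3 spot lies inside the dim area of replicate 3, at spot row 210 and column 85. Its processed signal was 7378, 7517, 572 and 1769 on replicates 1 to 4, with local background of 36, 41, 40 and 43. The 47 other detected spots of its block of 16 rows by 8 columns deviated by a median of -2.36 on that array, from -4.23 to -1.10, and 5 of them fell lower than Ddit3. Within 4 rows and columns of it, 27 spots had a median of -2.56. The low Ddit3 value thus sat among unrelated probes that were low on the same array, and it was within their range. When the median deviation of the block was subtracted on each of the 4 arrays, which raised replicates 3 and 4 and lowered replicates 1 and 2, Ddit3 read 5.12, 5.00, 4.91 and 5.90, a mean of 5.23 ± 0.45 (SD, n = 4). Replicate 3 then differed from the median of the others by -0.21, and replicate 4 was highest, 0.90 above the median of the others. Without replicate 3 the level was 5.62 ± 0.39 (SD, n = 3).

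A fainter low lay at the same place on replicate 4. Against the mean of replicates 1 and 2, a reference chosen after the values were seen, Ddit3 on replicate 4 was at -0.67 and its block at -0.79, the lowest of 496 blocks, whose median was 0.13. On replicate 3 the same reference gave -3.31 for Ddit3 and -2.40 for its block, beside a median of 0.09 over blocks. By this reference Ddit3 lay 0.90 below its block on replicate 3 and 0.12 above it on replicate 4. The order of the replicates for Ddit3 thus depended on how the block was taken into account. No other member had a spot in the dim area.

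**Figure D1:**
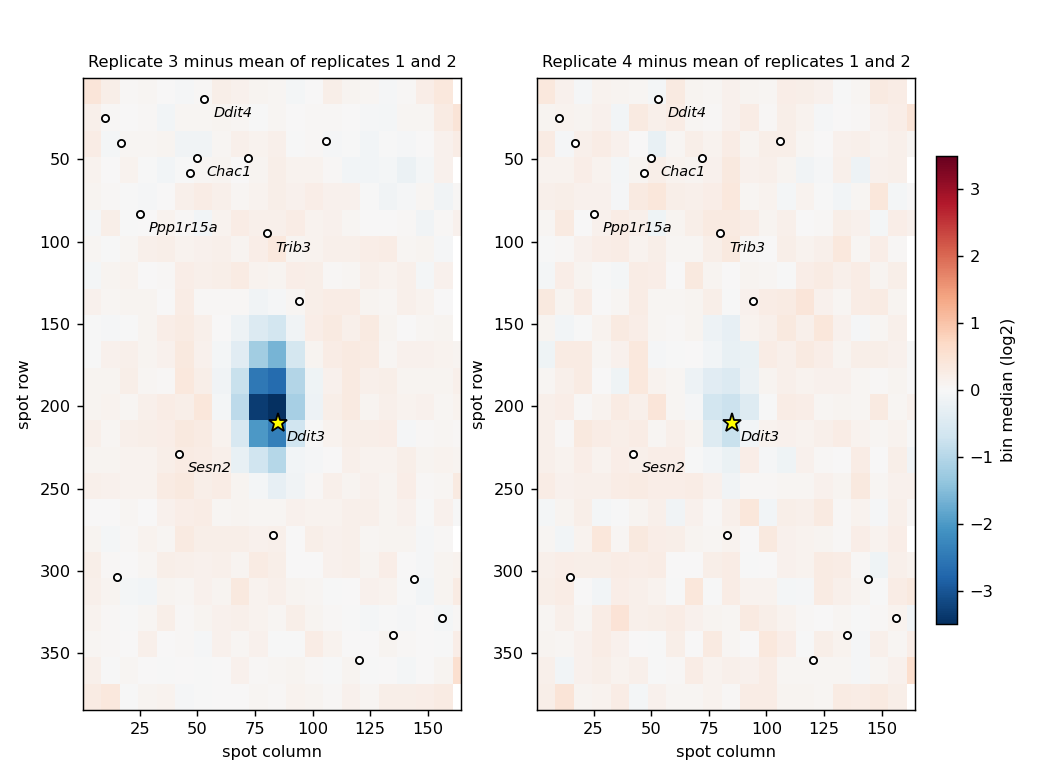
Position of member spots on the array; colour is the median over detected sample spots, in blocks of 16 rows by 8 columns, of the log2 difference from the mean of replicates 1 and 2, for replicate 3 (left) and replicate 4 (right). The star is Ddit3, open circles are the other member spots (unlabelled circles are Atf4 and Asns), and Ddit3 lies in the low centre, at -2.40 on replicate 3 and -0.79 on replicate 4.

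Ppp1r15a and Trib3 act as brakes. Ppp1r15a encodes GADD34, which brings protein phosphatase 1 to eIF2 and so restores protein synthesis. Its level was 5.85, 5.72, 6.21 and 6.74 on replicates 1 to 4, a mean of 6.13 ± 0.45 (SD, n = 4) and a range of 2.02-fold. Replicates 1 and 2 were low and close together, replicate 3 was between, and replicate 4 was highest. Before scaling, its processed signal was 7404, 6917, 7320 and 5235, lowest on replicate 4.

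Trib3 encodes a pseudokinase that binds ATF4 and CHOP and restrains AKT. Its level was 4.94, 4.89, 5.77 and 6.02, a mean of 5.41 ± 0.57 (SD, n = 4) and a range of 2.19-fold. Replicates 3 and 4 stood apart from replicates 1 and 2, and 93.6% of detected genes had a smaller SD. The unscaled signal of Trib3 was 3939, 3884, 5362 and 3186, so replicate 3 was highest and replicate 4 lowest before scaling.

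Asns encodes asparagine synthetase, a classic ATF4 target of amino acid shortage. Its level was 6.12, 6.12, 6.22 and 6.29, a mean of 6.19 ± 0.08 (SD, n = 4). The range was 1.13-fold and 9.29% of detected genes had a smaller SD, so Asns was nearly as even as Atf4. Chac1 encodes an enzyme that degrades glutathione and is induced by ATF4 and CHOP. Its level was 0.92, 0.90, 1.33 and 1.95, a mean of 1.28 ± 0.49 (SD, n = 4) and a range of 2.07-fold. The first pair of replicates agreed closely and replicate 4 was highest, whereas the unscaled signal of 242, 245, 247 and 190 was lowest there.

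Sesn2 and Ddit4 encode sestrin 2 and REDD1, stress-induced proteins that hold back mTORC1, the kinase complex that promotes growth. Sesn2 lay at 0.46, 0.36, 1.22 and 1.24, a mean of 0.82 ± 0.48 (SD, n = 4), with replicates 3 and 4 alike and apart from replicates 1 and 2. Ddit4 lay at 0.16, 0.03, 0.58 and 0.77, a mean of 0.38 ± 0.34 (SD, n = 4). The ranges were 1.84-fold for Sesn2 and 1.66-fold for Ddit4. These are the values of the brighter Ddit4 probe. The second Ddit4 probe read -2.46, -2.08, -3.38 and -2.52, was well above background on replicate 2 only, and did not share the order of the first. Its software error was 19.5% to 64.9% of the signal, beside 10.0% to 11.3% for the spots behind the other levels.

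**Figure D2:**
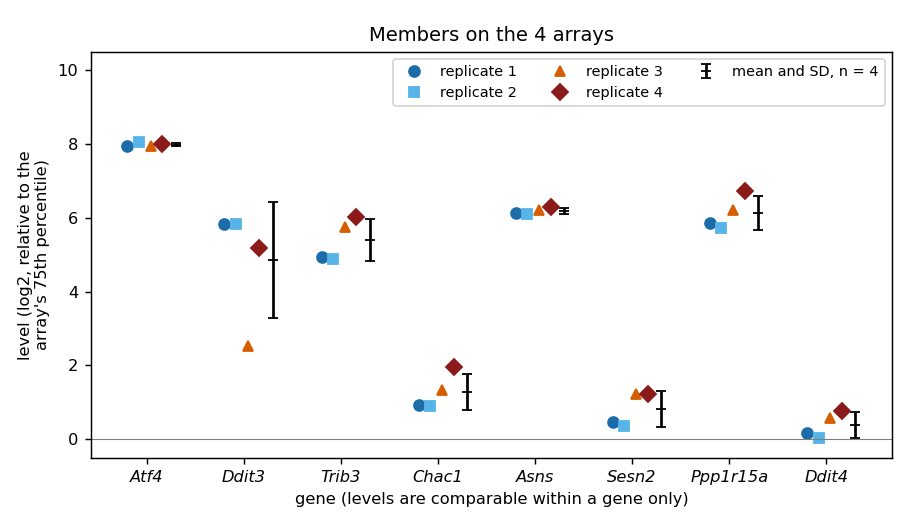
Level of each gene on each array (log2 of processed signal minus the array's 75th percentile), with the mean and SD (n = 4) as a bar to the right of the points. Replicate 3 of Ddit3, at 2.54, stands far below its other values, Atf4 and Asns are even, and the other genes are lowest on replicates 1 and 2 on this scale.

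On the percentile scale, 5 of the genes, Trib3, Chac1, Sesn2, Ppp1r15a and Ddit4, were below their own mean on replicates 1 and 2 and above it on replicates 3 and 4. Over the 8 members, 1 was above its own mean on replicate 1, where 38.4% of all detected genes were, and 2 on replicate 2 (42.0% of detected genes). On replicate 3, 6 of the 8 were above (61.9% of detected genes), and on replicate 4 all 8 were (59.8%). Ddit3 was above its own mean on replicates 1, 2 and 4 beside its very low value on replicate 3. Without Ddit3 the counts on replicates 1 to 4 were 0, 1, 6 and 7 of 7. The median shift from the gene's own mean was -0.25, -0.36, 0.07 and 0.40 log2 units over the members and -0.07, -0.06, 0.06 and 0.10 over all detected genes. Without replicate 4 the members' shifts on replicates 1 to 3 were -0.09, -0.18 and 0.28, and without replicate 1 or replicate 2 the shift on replicate 3 was close to 0.

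The direction of these shifts depended on the scaling. With arrays scaled on the spike-in controls, the members' median shifts were 0.20, 0.21, -0.10 and -0.45 and those of all detected genes 0.38, 0.51, -0.11 and -0.75, so that relative to the controls the members were higher on replicates 1 and 2. The members above their own mean then numbered 7, 8, 3 and 0 on replicates 1 to 4. The difference between members and detected genes was -0.18, -0.30, 0.01 and 0.30 on both scales, since a scaling moves all genes of an array together. It was -0.19, -0.24, 0.07 and 0.28 with normexp background correction and -0.18, -0.31, 0.01 and 0.37 after quantile normalization. Array brightness moved with the pattern, the percentile being lowest on replicate 4, and its part in the result was not tested.

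**Figure D3:**
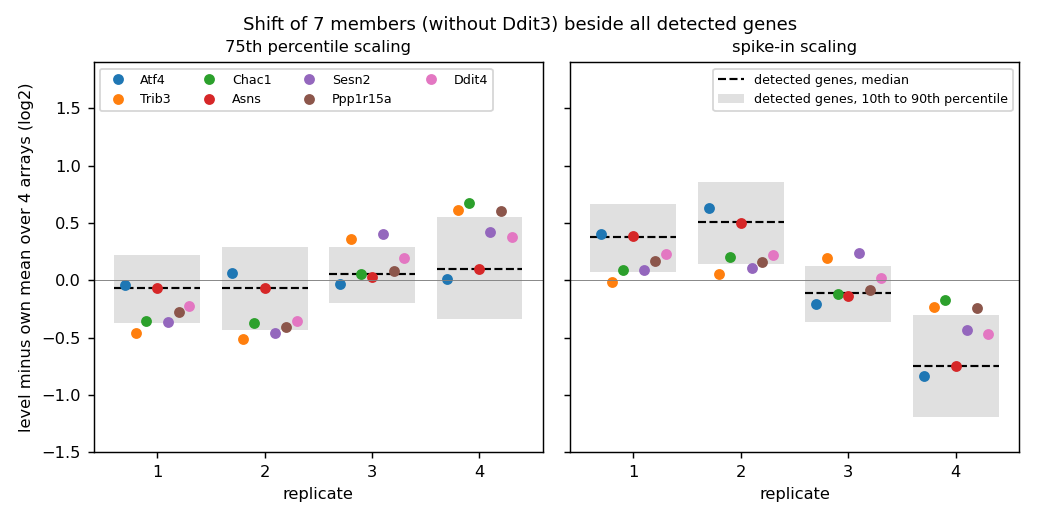
Shift of each gene on each array from its 4-array mean (log2 level) for the members without Ddit3, with arrays scaled to the 75th percentile (left) or on spike-in controls (right); grey bars span the 10th to 90th percentile of all detected genes and dashed lines are their median. The scale turns the direction of the members' shift, but on both scales Trib3, Chac1, Sesn2, Ppp1r15a and Ddit4 lie below the detected median on replicates 1 and 2 and above it on replicate 4, while Asns stays beside it.

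A difference between genes on the same array is unchanged by a scaling that moves all genes of the array together. Each gene was therefore also read against Atf4, a comparison chosen after the values were seen. Normexp, quantile normalization and local correction can still change such a difference. Trib3 relative to Atf4, minus its mean over arrays, was -0.42, -0.58, 0.39 and 0.60, a range of 2.26-fold between replicates, and 92.2% of detected genes had a smaller range against Atf4. Chac1 was at -0.31, -0.43, 0.09 and 0.66 (2.13-fold) and Ppp1r15a at -0.24, -0.47, 0.12 and 0.59 (2.09-fold). All 3 were thus lowest against Atf4 on replicate 2 and highest on replicate 4. Sesn2 was at -0.32, -0.52, 0.44 and 0.40 (1.95-fold) and Ddit4 at -0.18, -0.41, 0.23 and 0.37 (1.72-fold). The share of detected genes with a smaller range was 89.2% for Chac1, 87.8% for Ppp1r15a, 82.9% for Sesn2 and 70.1% for Ddit4. Asns was at -0.02, -0.13, 0.07 and 0.09, and its 1.16-fold range was smaller than the 1.48-fold median over detected genes. The same 5 genes had ranges of 1.89-fold to 2.23-fold with normexp, 1.81-fold to 2.07-fold after local correction and 2.11-fold to 2.53-fold after quantile normalization, and Asns 1.09-fold to 1.21-fold. With 1 array per replicate, differences between cultures and between array preparations cannot be told apart.

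**Figure D4:**
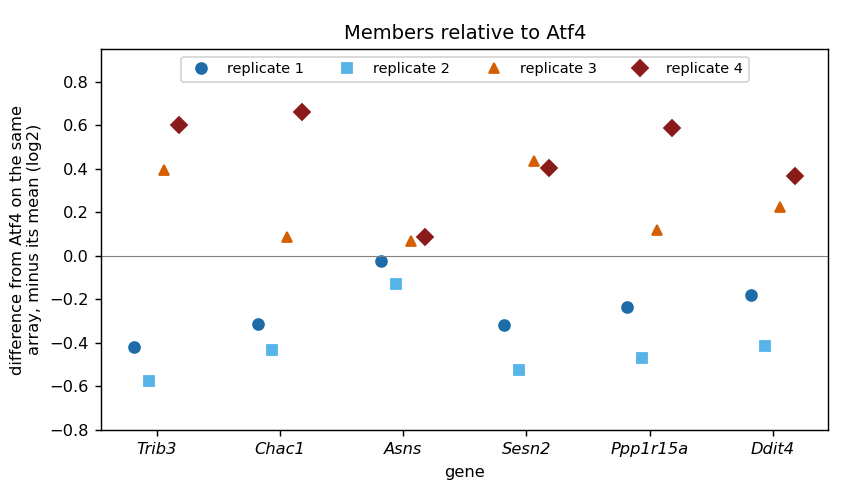
Difference in log2 level between each gene and Atf4 on the same array, minus the mean of that difference over the 4 arrays, 1 point per replicate. Trib3, Chac1, Sesn2, Ppp1r15a and Ddit4 lie below 0 on replicates 1 and 2 and above 0 on replicates 3 and 4, and Asns stays within -0.13 to 0.09.

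On the percentile scale 6 of the 8 members had a wider spread than the median detected gene, Atf4 and Asns being the exceptions. The members' median SD was 0.47 beside 0.25 over all detected genes, and 2 of 8, Ddit3 and Trib3, exceeded 0.5, where 11.6% of detected genes did. Without Ddit3 the median SD was 0.45. It fell to 0.27 without replicate 4, and was 0.51, 0.45 and 0.44 without replicates 1, 2 and 3, so replicate 4 carried much of it. The contrast with other genes depended on the processing. With normexp the median SD was 0.26 for the members and 0.23 for all detected genes, and with spike-in scaling it was 0.31 and 0.59, so that on that scale the members were the narrower and 2 of the 8 exceeded the detected median. For comparison, copies of a spot on 1 array differed by a median SD of 0.07 over 1014 detected probes with 10 spots.

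The wider pathway was given by 10 lists of 81 genes, of which 77 were measured and 68 detected on all 4 arrays. Their median SD was 0.20, and 34, 36, 35 and 37 of the 68 were above their own mean on replicates 1 to 4. Of all detected genes, 38.4%, 42.0%, 61.9% and 59.8% were. By this count on the percentile scale the pathway genes were spread evenly over the replicates. All detected genes were not, being more often above their own mean on replicates 3 and 4.

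The sensors of the response were present but uneven in detection. Of the eIF2 kinase genes, Eif2ak1 (HRI, the haem-regulated kinase) lay at 3.48 ± 0.17, Eif2ak3 (PERK, the sensor of the endoplasmic reticulum) at 0.54 ± 0.07 and Eif2ak2 (PKR, activated by double-stranded RNA) at -0.46 ± 0.32 (SD, n = 4). Eif2ak4 (GCN2, the sensor of uncharged tRNA) was well above background on 3 arrays. On the percentile scale Eif2ak1 was lower on replicates 1 and 2 (3.32 and 3.34) than on replicates 3 and 4 (3.57 and 3.67). Eif2ak2 had the opposite order, with -0.30 and -0.10 against -0.76 and -0.70. The median shift of the detected kinase genes was -0.10, 0.02, 0.05 and 0.02 on that scale. With spike-in scaling it was 0.35, 0.59, -0.12 and -0.83. Replicate orders given for pathway genes are all on the percentile scale. All 8 genes of eIF2 and its exchange factor eIF2B were detected, with a median SD of 0.19. The widest was Eif2s3, a subunit of eIF2, which read 0.60, 0.32, -0.29 and -0.54, higher on replicates 1 and 2. Eif2b1, Eif2b2 and Eif2b4 had SDs of 0.34, 0.22 and 0.20.

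All 5 genes of the phosphatase arm were detected. Ppp1r15b, which encodes the constitutive counterpart of GADD34, lay at 2.52 ± 0.13. The catalytic subunit genes Ppp1ca, Ppp1cb and Ppp1cc lay at 8.03 ± 0.17, 2.64 ± 0.37 and 6.01 ± 0.09, and Dnajc3, which inhibits eIF2 kinases, at 2.91 ± 0.38 (SD, n = 4). The median shift of this arm on replicate 4 was -0.19, beside 0.40 for the members. Ppp1ca was highest on replicate 4, at 8.27, as Ppp1r15a was, while Ppp1r15b, Ppp1cb, Ppp1cc and Dnajc3 were lowest there.

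The list of bZIP partners and related factors, 5 bZIP genes and the chromatin-associated stress gene Nupr1, was detected in 6 of 6 cases. Cebpb, which encodes the C/EBP partner, read 7.10, 7.31, 8.17 and 8.51, a mean of 7.77 ± 0.67 (SD, n = 4), lower on replicates 1 and 2 than on replicates 3 and 4. Atf5 and Jdp2, which encode related factors, had SDs of 0.33 and 0.40. Cebpg, whose product pairs with ATF4, has its only spot in the dim area and read 4.49, 4.62, 0.14 and 3.05, a pattern like that of Ddit3. Nupr1 had 2 of its 10 spots there.

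Of the amino acid synthesis genes 8 of 9 were detected, with a median SD of 0.44. Phgdh, the first step of serine synthesis, read 7.53, 7.47, 8.15 and 8.44, low on replicates 1 and 2. The later steps of the same pathway, Psat1 and Psph, had SDs of 0.05 and 0.07. Pycr1 (proline synthesis) read -1.01, -0.93, -0.25 and 0.12, whereas Cth (cysteine synthesis) read -0.21, 0.27, -0.78 and -0.74, lower on replicates 3 and 4. Gpt2 was detected on 3 arrays. Mthfd2, a mitochondrial folate enzyme, had 1 of 2 spots in the dim area and read 6.77, 6.88, 5.87 and 6.64. Of 6 measured transporter genes 5 were detected. Slc7a5, the large neutral amino acid carrier, read -0.40, -0.57, 0.16 and 0.34, and its partner Slc3a2 had an SD of 0.25, beside 0.35 for Slc1a5. The cystine carrier gene Slc7a11 read 3.82, 3.76, 3.59 and 3.34, lowest on replicate 4. Slc6a9 was detected on 2 arrays. The 11 tRNA synthetase genes were all detected and were the most even list, with a median SD of 0.08 and a median shift of -0.01 on replicate 4. Their exceptions were Cars1, whose spot lies in the dim area, and Nars1 with an SD of 0.34, while Eprs1 and Sars1 had 0.17 and 0.13.

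Among other stress effectors, 9 of 13 measured genes were detected, and Fgf21, Stc2, Vegfa and Vldlr were on 0 arrays. Gdf15, a secreted stress hormone, read 5.32, 5.17, 5.97 and 6.60, and Sqstm1, the autophagy receptor p62, read 8.41, 8.33, 9.05 and 9.36. Both were low on replicates 1 and 2, like the 5 members above. Herpud1 (endoplasmic reticulum degradation) and Bbc3 (the death factor PUMA) had SDs of 0.38 and 0.43. In the mTORC1 brake, 4 of 5 measured genes were detected. Tsc2, a brake on the GTPase Rheb, read 3.13, 3.10, 4.18 and 4.68, while Tsc1 and Rheb had SDs of 0.15 and 0.08. Depdc5 has its spot in the dim area and read 0.30, 0.05, -0.07 and -0.14, and Sesn3 was detected on 3 arrays.

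Of 10 genes from other branches of the unfolded protein response 9 were detected, with a median SD of 0.14 and a median shift of 0.02 on replicate 4. Ern1, the sensor IRE1, was well above background on 0 arrays. The chaperone genes Calr and Dnajb9 had SDs of 0.33 and 0.37, Sel1l had 0.26, and Hsp90b1, with 1 of 2 spots in the dim area, read 3.20, 3.47, 1.99 and 2.88. The largest median shifts on replicate 4 after that of the members were 0.37 for the other effectors, 0.27 for transport, 0.26 for the bZIP factors and 0.13 for amino acid synthesis. The eIF2 and eIF2B genes were at -0.11. With spike-in scaling the shifts on replicate 4 were negative for the members and all 10 lists, from -1.04 for the phosphatase arm to -0.45 for the members.

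**Figure D5:**
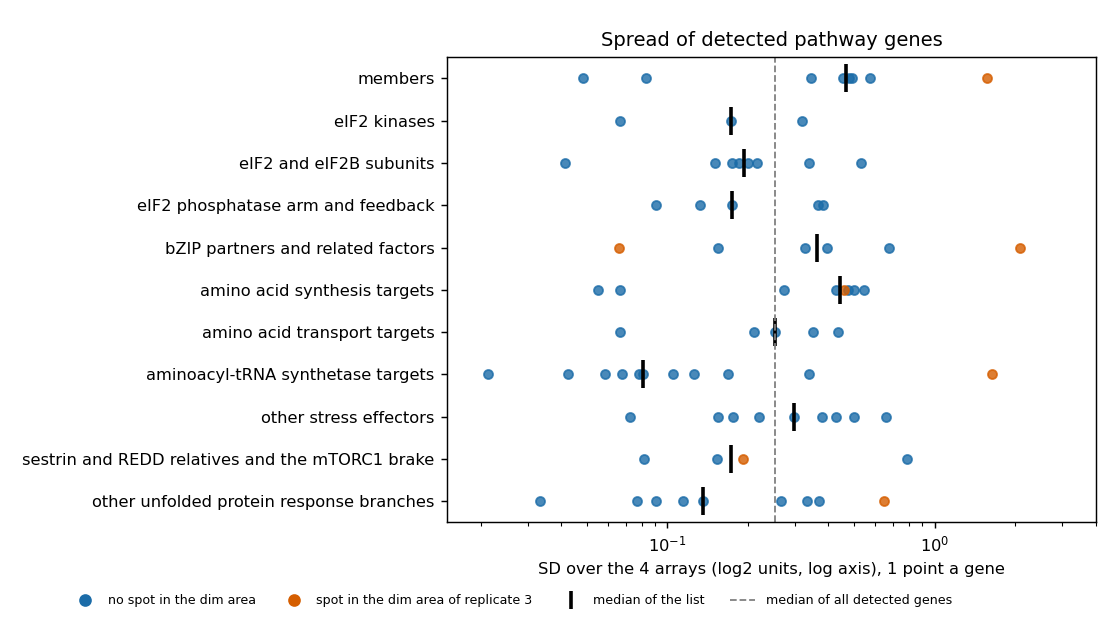
SD over the 4 arrays (log2 units, log axis) of each detected gene of the members and of 10 pathway lists; blue points have no spot in the dim area of replicate 3 and orange points have one, black ticks are list medians and the dashed line is the median of all detected genes, 0.25. The members' median is 0.47, the tRNA synthetase genes lie lowest at 0.08, and 3 of the widest points, Ddit3, Cebpg and Cars1, have their spots in the dim area.

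The profile of the 7 members outside the dim area was not peculiar to them. Their median level relative to own mean was -0.28, -0.37, 0.08 and 0.42 on replicates 1 to 4. The genes closest to it by root-mean-square distance over the 4 arrays were C8h11orf71 (0.038), Golga2 (0.039), Cox5b (0.039), Atp5mc1 (0.040) and Cd151 (0.040), which encode an uncharacterized protein, a Golgi matrix protein, subunits of cytochrome c oxidase and ATP synthase, and a tetraspanin. Of 7356 other detected genes, 752 lay within 0.1 log2 units of the profile.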

How the data were processed

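Total RNA of 4 biological replicates, labelled with Cy3, was read on 1-colour arrays. The deposited files hold spot intensity from Agilent Feature Extraction 11.0.1.1, per the file headers, with background already subtracted in the processed signal. Spots that the software marked non-uniform or as population outliers were dropped, and the others of a probe averaged. The log2 of the processed signal minus each array's 75th percentile was computed here, and the deposited intensity was not changed otherwise. Of 45598 sample probes, 24489 had no RefSeq match and stayed unnamed; names come from RefSeq on GRCr8, and the headers name rn4, so no probe coordinates are given. A gene's brightest probe was used. A gene was detected where over 50% of a probe's spots were well above background on all 4 arrays. No member spot was saturated. Blocks of 16 rows by 8 columns were dim where the median deviation was below -0.5.

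With 1 group no test was made. The members and lists were chosen with earlier results of these data known. Named were the members, the kinases, the phosphatase arm and, per other list, genes not detected (up to 6), genes in the dim area (up to 6) and the 4 with the largest SD, plus the 5 genes nearest in profile. Psat1, Psph and the genes named as promoter matches were chosen after their values were seen. Normexp (offset 50, limma 3.58.1) used the median foreground, as the planned mean foreground was not among the columns available here. Other settings were spike-in, detected-probe and quantile scaling, all spots, the mean of probes, the dim area left out, local correction and each replicate left out. The 4 arrays share 1 slide, so slide differences do not enter. Culture, extraction and labelling batches were not modelled. Python 3.11.15 and R 4.3.3 were used. Only finding, leaving out and locally correcting a dim area, and recovering spots raised on an array, were tested on simulated data.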

Additional observations from a re-analysis of the deposited data

Results flagged for a closer look

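In 2 of 58 named genes, 1 array lay apart from the others by more than Dixon's 95% critical value for 4 samples of the gap over the range, which chance gives in about 1 in 20 groups. Cars1, a tRNA synthetase gene, read 2.60, 2.49, -0.84 and 2.12 on replicates 1 to 4, with a gap over range of 0.861, and its spot lies in the dim area of replicate 3. Vegfa read -4.50, -4.39, -4.26 and -2.90, with 0.85 for replicate 4, and did not rise well above background on any of them. Ddit3 stayed below the critical value at 0.796, as replicate 4 was low as well.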

How the results depend on the processing

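Leaving out each replicate kept 84 of 84 values within 1 SD or on the same side. That count says little, since leaving out 1 of 4 values cannot move a gene's mean level by 1 SD. The SD of Ddit3, counted as kept, was 1.57 on all 4 arrays and 0.39 without replicate 3. The members' median shift ranged from -0.38 to -0.09 on replicate 1 and from -0.46 to -0.18 on replicate 2. It ranged from close to 0 up to 0.28 on replicate 3 and from 0.35 to 0.50 on replicate 4. The members' median SD ranged from 0.27 to 0.51. Of 231 values under other settings, 194 stayed within 1 SD or on the same side, 26 were counted as moved and 11 as reversed. Some values not counted as reversed changed sign too. The deviation of Asns on replicate 3, counted as moved, went from 0.10 to -0.08 with normexp and -0.52 with spike-in scaling. Normexp moved the levels of Atf4 to 7.17, Trib3 to 4.62, Asns to 5.37 and Ppp1r15a to 5.34, and the members' median shift on replicate 4 to 0.15. The percentile over detected probes, which lies higher by construction, moved Atf4 to 3.88, Ddit3 to 0.75, Trib3 to 1.30, Asns to 2.09 and Ppp1r15a to 2.03, and turned Chac1 to -2.83, Sesn2 to -3.28 and Ddit4 to -3.72. Spike-in scaling turned the median shifts to 0.20, 0.21 and -0.45 on replicates 1, 2 and 4. The median shift on replicate 3, counted as kept, went from 0.07 to -0.10. The same scaling turned the deviations on replicate 3 of Chac1 to -0.21, Ppp1r15a to -0.25 and Ddit4 to -0.20. The mean of both Ddit4 probes turned its level to -1.11 and its deviation on replicate 3 to -0.38. A dim threshold of -1 left 10 blocks of 18, with Ddit3 still among them. All 8 genes were detected under the looser mark and at 3 of 4 arrays, and 7 where every probe had to be, Ddit4 being the exception. The 4 arrays of 1 group, 1 or 2 spots for most members and low signal for Sesn2, Chac1 and Ddit4 limit precision.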
